A study of Mus musculus with 24 samples.

Results

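The 10 genes described here are inflammatory response genes: the NF-kB regulators Nfkbia, Nfkbiz and Tnfaip3, the adhesion molecule Icam1, the chemokines Cxcl1 and Ccl2, the cytokine Il6, the cytokine signalling brake Socs3, and the transcription factor genes Cebpb and Cebpd. They were chosen by name from a table of 36144 genes measured by RNA sequencing of mouse interscapular brown adipose tissue, a depot between the shoulder blades that burns fuel to make heat. All 10 were in the table. Of these, 9 had enough reads for the test across genes, which covered 13129 genes, and Il6 did not.

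The tissue came from 24 mice aged 6 to 8 months, taken 30 minutes after saline or deschloroclozapine (DCZ), a ligand of designer muscarinic receptors. The 4 groups held 6 mice each, 3 males and 3 females. Wild-type (WT) mice were labelled C57Bl/6J, and Th-Cre mice, which carry Cre recombinase driven by regulatory sequence of the tyrosine hydroxylase gene, were labelled B6.129X1- Tht1(cre)Te/Kieg. The 4 groups were thus WT with saline, WT with DCZ, Th-Cre with saline and Th-Cre with DCZ. Tyrosine hydroxylase marks cells that make catecholamines, such as sympathetic neurons, and the series title names activation of the sympathetic neurons that project to this fat depot. Which designer receptor was used, how it was delivered and whether WT mice received it are not stated in the labels used here.

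NF-kB transcription factors are held in the cytoplasm by inhibitor proteins. When cytokines, microbial products or tissue damage trigger the degradation of the inhibitors, NF-kB enters the nucleus and induces chemokines, adhesion molecules and its own inhibitors, which closes the loop. Cytokines of the IL-6 family act through JAK kinases and STAT3, and STAT3 induces Socs3, which blocks the receptor. C/EBP factors take part in acute inflammation and also in adipocyte differentiation, and C/EBP beta is a partner of the brown fat programme. Many of these mRNAs are short-lived and can change soon after a stimulus.

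The stretches below lie just upstream of the RefSeq start sites of 5 of the genes (build GRCm38.p6, each read 5′ to 3′ on the gene's strand, none of it in an exon of the gene). They are shown as a description, and no link between these motifs and the genes' levels or shared variation was tested. Capitals mark a kappaB match in Nfkbia, Tnfaip3 and Cxcl1, a STAT match in Socs3 and the CRE core in Cebpb. The Nfkbia stretch is chr12:55492648-55492767 on the minus strand, that of Tnfaip3 is chr10:19015411-19015540 on the minus strand, and that of Cxcl1 is chr5:90891125-90891239 on the plus strand. The Socs3 stretch is chr11:117969452-117969546 on the minus strand, and that of Cebpb is chr2:167688730-167688914 on the plus strand.
Nfkbia: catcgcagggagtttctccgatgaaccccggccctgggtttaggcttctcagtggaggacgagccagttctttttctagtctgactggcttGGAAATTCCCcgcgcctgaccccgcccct
Tnfaip3: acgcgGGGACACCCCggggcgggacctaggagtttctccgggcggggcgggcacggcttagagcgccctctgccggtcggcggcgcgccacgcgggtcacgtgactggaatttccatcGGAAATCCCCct
Cxcl1: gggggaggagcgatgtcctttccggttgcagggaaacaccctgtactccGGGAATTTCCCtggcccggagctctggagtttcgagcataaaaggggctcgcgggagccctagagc
Socs3: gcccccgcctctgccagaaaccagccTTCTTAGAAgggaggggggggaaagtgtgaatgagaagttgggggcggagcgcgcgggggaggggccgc
Cebpb: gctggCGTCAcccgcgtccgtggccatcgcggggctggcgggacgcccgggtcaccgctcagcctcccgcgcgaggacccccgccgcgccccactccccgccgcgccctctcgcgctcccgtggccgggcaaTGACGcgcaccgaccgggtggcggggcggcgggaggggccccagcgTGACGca

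Motifs were searched on both strands of the 250 bases before each start site. The promoter set held 8 promoters of 7 of the 10 genes and 32851 promoters in all. Ccl2, Cebpd and Nfkbiz had no promoter in it, so they were not searched. The kappaB consensus, the site NF-kB binds, was present upstream of Nfkbia, Tnfaip3, Cxcl1 and Il6, and in 7.25% of all promoters. Its capitals in Cxcl1 hold 2 overlapping matches. The STAT motif TTCNNNGAA was found upstream of Icam1 and Socs3 and in 7.02% of all promoters. Cebpb, Cxcl1, Il6 and Tnfaip3 held the CRE core TGACG, which CREB binds downstream of cAMP, as did 17.8% of all promoters. The AP-1 motif TGANTCA was found upstream of Il6 and Tnfaip3, and in 6.75% of all promoters, and the C/EBP motif TTGCNNAA upstream of Il6 and in 9.56%. The CRE cores of Cxcl1 and Tnfaip3 and the AP-1 match of Tnfaip3 lie further upstream than the stretches shown. A match is a description of these letters, not evidence of binding.

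Each library held between 11.9 and 22.9 M counts. The Y-linked genes matched the labelled sex in 24 of 24 libraries. All 12 brown adipocyte markers, Ucp1 among them, had reads in every library, and their summed level was 12710 to 19190 CPM, the level scale used here, a gene's counts per 1 M counts of its library after TMM scaling. Skeletal muscle transcripts were high in 6 libraries, 1 from WT saline, 3 from Th-Cre saline and 2 from Th-Cre DCZ. WT mice were libraries 1 to 12 and Th-Cre mice libraries 13 to 24, so genotype and library number cannot be told apart. A single male, WT saline mouse 9, had the highest level in its group for 8 of the 9 tested genes, and another male, WT DCZ mouse 3, for 7 of 9. For the larger differences, the value without such a library is given where it moved by over 1.5 times or changed a call. In whole tissue, fewer cells of a type and less RNA per cell cannot be told apart.

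Levels of the 10 genes spanned from abundant to barely detected. Compared per kilobase of exon, Cebpb stood highest at 177 ± 29.8 CPM per kb (SD, n = 24), ahead of Nfkbia at 26.7 ± 5.77, and each was above the next gene in 24 of 24 libraries. Nfkbiz at 3.25 ± 1.24 and Socs3 at 3.15 ± 3.38 CPM per kb did not differ beyond their spread, nor did Cebpd at 1.88 ± 0.749 and Icam1 at 1.78 ± 0.487. Below them came Cxcl1 at 1.07 ± 0.922, Ccl2 at 0.757 ± 0.445 and Tnfaip3 at 0.542 ± 0.187 CPM per kb, in an order that held in 16 or 17 of 24 libraries for each neighbouring pair. Il6 was last at 0.0476 ± 0.0583 CPM per kb, below Tnfaip3 in 24 of 24 libraries. Other CPM values here are not divided by length and serve comparisons of 1 gene between mice.

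**Figure D1:**
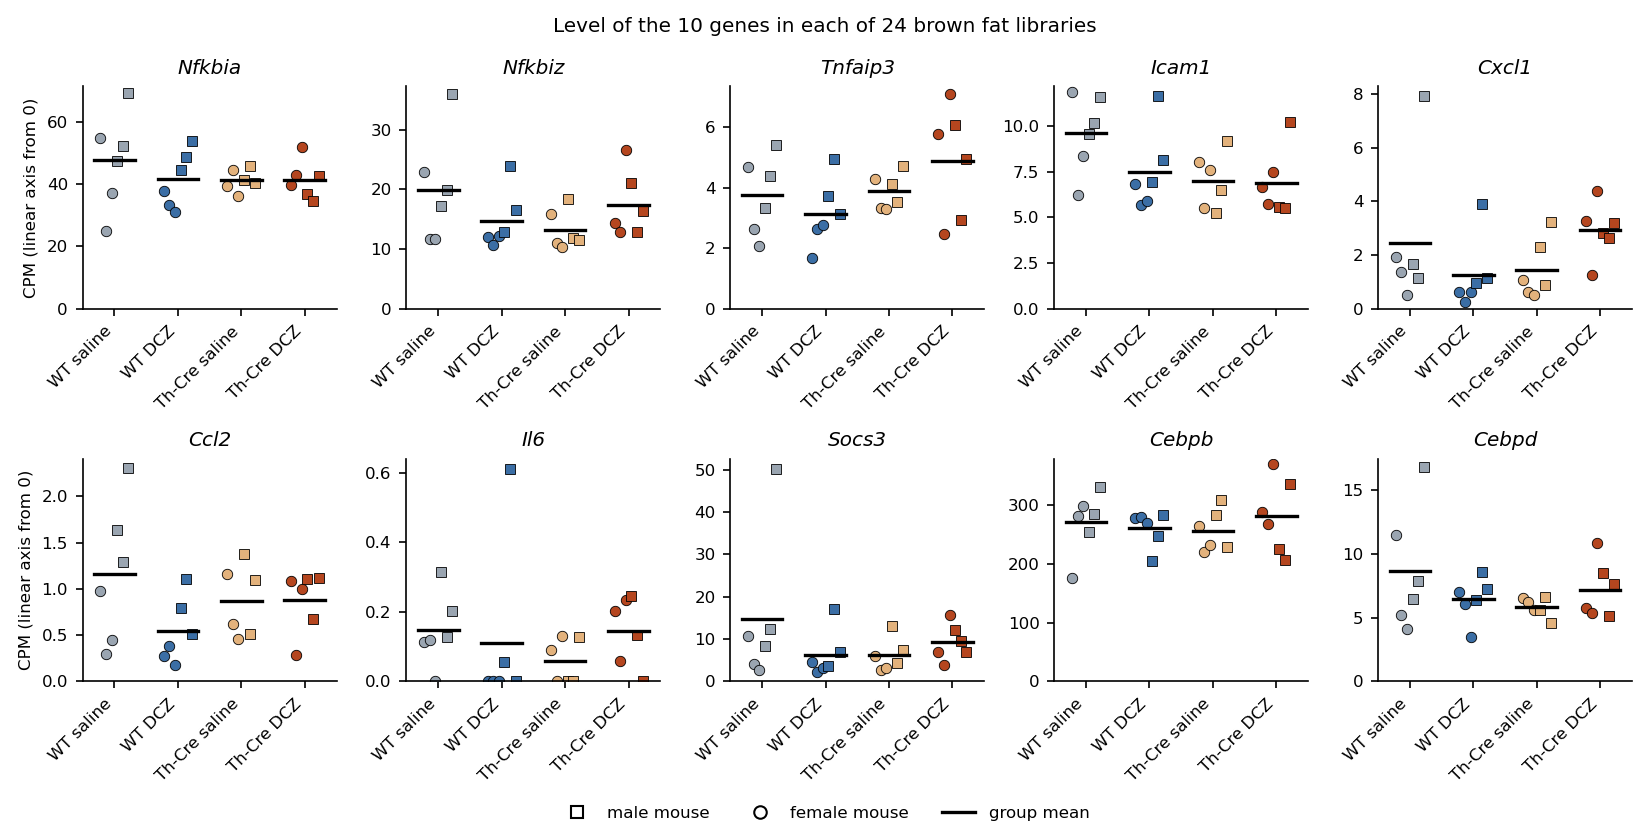
Level of each of the 10 genes in CPM (linear axes from 0) in every mouse, by group; squares are males, circles females and black lines group means of 6 mice. The groups overlap for every gene, and the highest Socs3, Cxcl1, Ccl2, Nfkbiz, Nfkbia and Cebpd values belong to 1 WT saline male, with Socs3 at 50.3 CPM.

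The comparison the study is built on, DCZ against saline in Th-Cre mice, called 0 of the 9 tested genes at an adjusted p under 0.05, against 0.0229% of all genes tested. The same contrast in WT mice, which lack the Cre driver, also called 0 of 9, against 0.00762% of all genes. The difference between these 2 effects, the genotype by DCZ interaction, called 0 of 9, against 0.00762% of all genes. At an unadjusted p under 0.05 the counts were 1 of 9 in Th-Cre, 2 of 9 in WT and 3 of 9 for the interaction. The shares of all genes at that threshold were 5.67%, 8.66% and 7.46%. DESeq2 and limma-voom also called 0 of 9 in each of these 3 comparisons.

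Signs were uneven all the same. In Th-Cre mice 8 of 9 genes had a positive log2 fold change for DCZ, with a median of 0.30, and in WT mice 0 of 9 did, with a median of -0.42. All 9 interaction values were positive, with a median of 0.71. Over all genes tested, about 50.2%, 49.8% and 50.4% of values were positive in these 3 comparisons and the medians lay at 0.00. The comparisons share libraries, and the 9 genes moved together between mice, so these signs are not 9 separate observations. Erythroid markers, a sign of blood in the tissue, took the same signs, positive for 5 of 5 in Th-Cre, 0 of 5 in WT and 5 of 5 for the interaction, with 0 called and medians of 0.52, -0.66 and 1.196. None of them was at 0, and their sums ran from 49.5 to 1152 CPM in WT saline, 53.5 to 594 in WT DCZ, 95.4 to 429 in Th-Cre saline and 79.7 to 778 in Th-Cre DCZ. Vessel markers leaned the same way, with 0 called: 6 of 9, 1 of 9 and 9 of 9 endothelial markers and 6 of 7, 1 of 7 and 6 of 7 smooth muscle and pericyte markers were positive in the 3 comparisons, with interaction medians of 0.23 and 0.27. None of these markers was at 0. Endothelial sums ran from 642 to 942 CPM in WT DCZ and 571 to 715 in Th-Cre DCZ. The other cell types did not lean this way in all 3 comparisons. In the same order, 9, 7 and 7 of 11 macrophage, 2, 3 and 1 of 5 neutrophil and 4, 4 and 5 of 8 lymphocyte markers were positive. So were 6, 6 and 5 of 8 fibroblast, 0, 0 and 11 of 13 skeletal muscle and 7, 8 and 5 of 12 brown adipocyte markers. For females against males 5 of 5 erythroid markers were positive, where 8 of the 9 genes were negative. The part of blood and vessels in these signs was not tested.

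Genotype comparisons called 0 of 9 genes under saline, against 24.9% of all genes tested, and 0 of 9 under DCZ, against 13.8% of all genes. At an unadjusted p under 0.05 the counts were 4 of 9 under saline and 2 of 9 under DCZ, against 38.7% and 29.9% of all genes. Under saline limma-voom called 1 gene, Icam1, and DESeq2 none. Under DCZ DESeq2 called Cxcl1 and Tnfaip3, and limma-voom none. The summed brown adipocyte markers differed between genotypes with no overlap, at 15360 to 19190 CPM in WT and 12710 to 15210 in Th-Cre. Taken singly, the 12 markers were split. Under saline 6 of 12 were positive, with 1 called higher and 4 lower in Th-Cre and a median of 0.01. Under DCZ 5 of 12 were positive, with 1 called higher and 3 lower and a median of -0.08. Their part in the genotype differences was not tested. Females against males, compared within all groups, gave the only calls of the edgeR fit: 2 of 9 genes, Ccl2 and Socs3, both lower in females, against 8.07% of all genes called in either direction and 3.95% called lower in females.

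**Figure D2:**
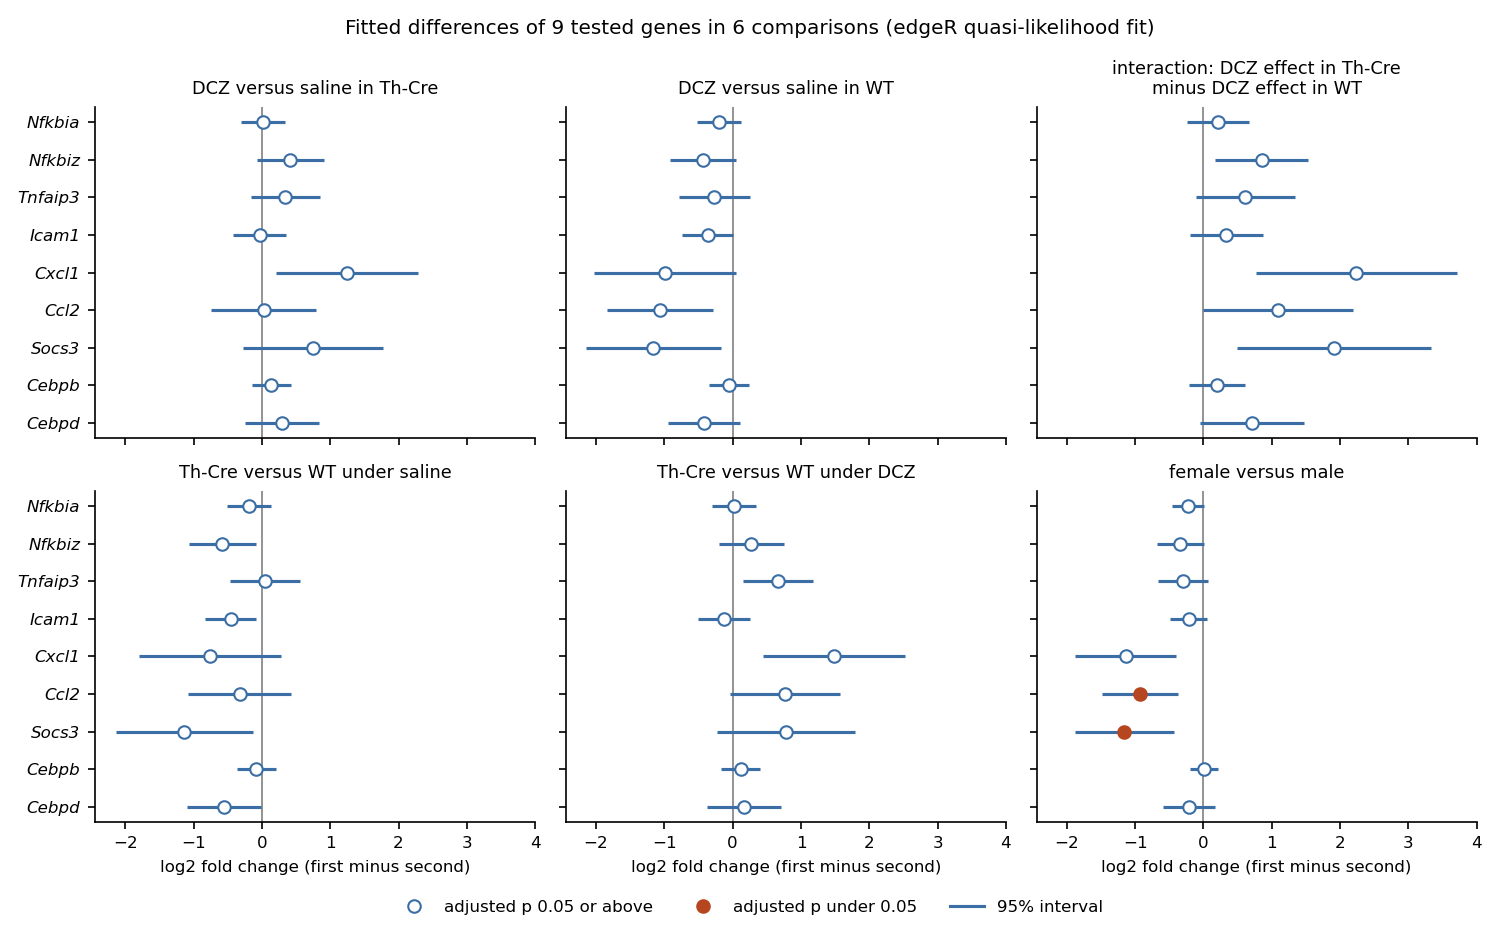
Fitted log2 fold change with its 95% interval for the 9 tested genes in 6 comparisons, filled where the adjusted p was under 0.05. The filled points are Ccl2 at -0.93 and Socs3 at -1.16 for females against males; interaction values are all above 0, with the widest intervals for Cxcl1 and Socs3.

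Among the NF-kB regulators, Nfkbia encodes IkB alpha, the protein that keeps NF-kB in the cytoplasm and is resynthesised as soon as NF-kB is active. The gene spans chr12:55489410-55492647 (GRCm38, minus strand). Nfkbia ranged from 25.1 to 69.2 CPM in WT saline (median 49.7), from 30.9 to 53.9 in WT DCZ (median 41.2), from 36.2 to 45.7 in Th-Cre saline (median 40.7) and from 34.5 to 51.9 in Th-Cre DCZ (median 41.1). The 4 groups overlapped, and both ends of the whole range fell in WT saline. Its log2 difference between DCZ and saline in Th-Cre was 0.02 ± 0.16 (SE) (adjusted p = 0.999), with a 95% interval of -0.31 to 0.34. In WT the log2 difference was -0.19 ± 0.16 (adjusted p = 0.708).

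Nfkbiz, at chr16:55811375-55838899 on the minus strand, encodes IkB zeta, a nuclear member of the family that is itself an early NF-kB target and helps switch on Il6 and other secondary genes. Its levels were 11.8 to 36.1 CPM in WT saline (median 18.6) and 10.7 to 23.9 in WT DCZ (median 12.5). In Th-Cre mice they were 10.3 to 18.4 with saline (median 11.7) and 12.9 to 26.6 with DCZ (median 15.4). In Th-Cre, 2 of the 6 DCZ mice were above all saline mice and the others lay among them. The log2 difference was 0.42 ± 0.24 in Th-Cre (adjusted p = 0.905) and -0.44 ± 0.23 in WT (adjusted p = 0.596). Without Th-Cre DCZ mouse DN2207 the first was 0.18, and without WT saline mouse 9 the second was -0.22. Without the 6 muscle-containing libraries the first was 0.88 (adjusted p = 0.591). The interaction was 0.85 ± 0.33, which had an unadjusted p of 0.0164 and an adjusted p of 0.607. Under saline, the 6 Th-Cre mice were all below the WT mean, at a log2 difference of -0.58 ± 0.24 (adjusted p = 0.0724), and 3 of them were below all WT mice. Without WT saline mouse 9, the highest at 36.1 CPM, it was -0.37 (adjusted p = 0.248), and without WT saline mouse 2 it was -0.67 (adjusted p = 0.0342).

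Tnfaip3 encodes A20, a ubiquitin-editing enzyme that stops signalling from the TNF and Toll-like receptors upstream of NF-kB. It lies at chr10:19000910-19015657 on the minus strand. WT mice had 2.08 to 5.41 CPM with saline (median 3.86) and 1.68 to 4.94 with DCZ (median 2.95). Th-Cre mice had 3.31 to 4.72 CPM with saline (median 3.83) and 2.48 to 7.08 with DCZ (median 5.37). With DCZ the Th-Cre mice split widely: 4 of 6 were above every Th-Cre saline mouse and 2 of 6 below all of them. The log2 difference was 0.34 ± 0.25 in Th-Cre (adjusted p = 0.969) and -0.27 ± 0.25 in WT (adjusted p = 0.754). Without the 6 muscle-containing libraries the log2 difference was 0.52 in Th-Cre (adjusted p = 0.996) and -0.12 in WT (adjusted p = 0.953). Between genotypes under DCZ it was 0.66 ± 0.25 (adjusted p = 0.0738), and 4 of 6 Th-Cre mice were above all WT mice. Without WT DCZ mouse 3 this value was 0.80 (adjusted p = 0.0457), without Th-Cre DCZ mouse DN2091 0.81 (adjusted p = 0.0305) and without Th-Cre DCZ mouse DN2205 0.77 (adjusted p = 0.0350).

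Icam1 encodes the adhesion molecule that leukocytes grip on activated endothelium. Its gene, chr9:21015985-21028817 on the plus strand, overlaps the antisense gene Gm47079, and reads of the pair are told apart only if strand was used in counting, which is not given in the sources used here. Icam1 levels were 6.24 to 11.8 CPM in WT saline (median 9.84), 5.68 to 11.6 in WT DCZ (median 6.87), 5.24 to 9.18 in Th-Cre saline (median 7.05) and 5.49 to 10.2 in Th-Cre DCZ (median 6.19). WT saline had the highest median of the 4 groups, and its lowest mouse was still within the range of the other groups. DCZ against saline gave a log2 difference of -0.03 ± 0.19 in Th-Cre (adjusted p = 0.999) and -0.37 ± 0.18 in WT (adjusted p = 0.580).

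Between genotypes under saline, Icam1 had a log2 difference of -0.46 ± 0.18 in Th-Cre (adjusted p = 0.0681), with 6 of 6 Th-Cre mice below the WT mean. Leaving out WT saline mouse 2 brought it to -0.54 (adjusted p = 0.0257), whereas leaving out the 6 muscle-containing libraries brought it to -0.23 (adjusted p = 0.493). Endothelial markers moved the same way: 8 of 9 were called lower in Th-Cre under saline, against 24.9% of all genes called in either direction. None of the 9 was at 0. Their summed level was 591 to 656 CPM in Th-Cre saline and 615.5 to 1103 CPM in WT saline. Smooth muscle and pericyte markers were called lower for 5 of 7, against the same share of all genes. The part of these cell types in the Icam1 difference was not tested.

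Of the chemokines, Cxcl1 had the widest difference of the 9 genes for DCZ in Th-Cre and for the interaction, while in WT that place was taken by Socs3. Cxcl1, at chr5:90891241-90893115 on the plus strand, encodes a ligand of Cxcr2 that draws neutrophils. In WT saline its levels were 0.521 to 7.91 CPM (median 1.53) and in WT DCZ 0.270 to 3.89 (median 0.801). Th-Cre saline mice had 0.519 to 3.23 CPM (median 0.974), and Th-Cre DCZ mice had 1.27 to 4.39 CPM (median 3.01). Th-Cre DCZ had the highest median of the 4 groups, and 2 of its 6 mice were above every Th-Cre saline mouse. The highest value of all was that of WT saline mouse 9.

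In Th-Cre, Cxcl1 averaged 2.93 ± 1.02 CPM (SD, n = 6) with DCZ and 1.44 ± 1.09 with saline, and 5 of 6 DCZ mice were above the saline mean. The log2 difference was 1.24 ± 0.50 (unadjusted p = 0.0210, adjusted p = 0.7365). In WT it was -0.99 ± 0.50 (adjusted p = 0.585), or -0.35 without WT saline mouse 9 and -1.60 without WT DCZ mouse 3. The interaction was 2.24 ± 0.71, with a 95% interval of 0.77 to 3.71 (unadjusted p = 0.00442, adjusted p = 0.603). Between genotypes under DCZ, 6 of 6 Th-Cre mice had Cxcl1 above the WT mean, at a log2 difference of 1.48 ± 0.50 (adjusted p = 0.05155). DESeq2 called it (1.59, adjusted p = 0.0247). Without WT DCZ mouse 3 that difference was 2.04 (adjusted p = 0.0161), without Th-Cre DCZ mouse DN2091 1.65 (adjusted p = 0.0456), without DN2205 1.56 (adjusted p = 0.0472), and without both WT saline 9 and WT DCZ 3 it was 2.01 (adjusted p = 0.00617). Without the muscle-containing libraries it was 1.52 (adjusted p = 0.1405). Neutrophil and macrophage markers leaned the same way under DCZ, where 13.8% of all genes were called. Of 5 tested neutrophil markers 4 were positive and 1 was called higher in Th-Cre, and 10 of 11 macrophage markers were positive with 0 called. The neutrophil sums had a median of 6.50 CPM in Th-Cre and 3.997 in WT, and the macrophage sums 119 and 82.5, with no marker at 0 in either group. These markers leaned higher in Th-Cre under saline too, where Cxcl1 did not and 24.9% of all genes were called. There 5 of 5 neutrophil markers were positive with 1 called higher, and 9 of 11 macrophage markers with 0 called. The part of these cells in the Cxcl1 difference was not tested. Under saline the Cxcl1 difference between genotypes was -0.76 ± 0.50 (adjusted p = 0.276), or -0.11 without WT saline mouse 9.

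Ccl2 encodes MCP-1, which recruits monocytes through Ccr2. It lies at chr11:82035571-82037453 on the plus strand and overlaps Gm17268 on the other strand. It was scarce: 337 counts over 24 libraries, with at least 1 read in each. Levels were 0.300 to 2.30 CPM in WT saline (median 1.13) and 0.176 to 1.11 in WT DCZ (median 0.446). In Th-Cre they were 0.454 to 1.38 with saline (median 0.861) and 0.289 to 1.12 with DCZ (median 1.04). The lowest group was WT DCZ, where 6 of 6 mice were under the WT saline mean and 2 of them under all WT saline mice. The log2 difference was -1.07 ± 0.38 in WT (unadjusted p = 0.00929, adjusted p = 0.527) and 0.03 ± 0.37 in Th-Cre (adjusted p = 0.999, 95% interval -0.74 to 0.80), with an interaction of 1.09 ± 0.53 (adjusted p = 0.666). Without the 6 muscle-containing libraries the Th-Cre value was 0.57, not called.

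Il6 encodes interleukin 6, the cytokine whose signal runs through gp130 to STAT3. Its gene lies at chr5:30013114-30019981 on the plus strand. Il6 had 47 reads in all, and 15 of 24 libraries held any. Levels were 0 to 0.316 CPM in WT saline, 0 to 0.611 in WT DCZ, 0 to 0.130 in Th-Cre saline and 0 to 0.245 in Th-Cre DCZ. Of the 12 reads in WT DCZ, nearly all came from mouse 3, and 4 of the 6 mice had none. A count of 3, the limit below which a library says little, corresponds to 0.134 to 0.267 CPM at these depths. In Th-Cre the mean was 0.146 ± 0.100 CPM with DCZ and 0.0580 ± 0.0652 with saline (two-sided exact permutation test, p = 0.102, n = 6 against 6), and in WT 0.111 ± 0.246 and 0.147 ± 0.105 (exact p = 0.805). Without WT DCZ mouse 3 the WT difference of -0.136 CPM had an exact p of 0.0260, so 1 library decides it. Single libraries moved the other Il6 comparisons across the threshold too: DCZ in Th-Cre had an exact p of 0.0303 without DN2097, and Th-Cre against WT had 0.0433 under saline without WT saline mouse 8 and 0.0260 under DCZ without WT DCZ mouse 3, from 0.132 and 0.816 with all mice.

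Socs3, at chr11:117966079-117970047 on the minus strand, encodes the STAT3-induced protein that shuts down gp130 receptors. It was the most variable of the well-covered genes. Levels were 2.75 to 50.3 CPM in WT saline (median 9.56), 2.22 to 17.0 in WT DCZ (median 4.09), 2.80 to 13.1 in Th-Cre saline (median 5.15) and 3.99 to 15.8 in Th-Cre DCZ (median 8.25). All 4 groups overlapped, and the value of 50.3 CPM, from WT saline mouse 9, stood far above the next in its group, 12.5 CPM. The log2 difference was 0.75 ± 0.49 in Th-Cre (unadjusted p = 0.143, adjusted p = 0.95) and -1.16 ± 0.48 in WT (unadjusted p = 0.0231, adjusted p = 0.527). Without DN2207, the highest Th-Cre DCZ mouse, the first was 0.28, and without WT saline mouse 9 the second was -0.47. Without the 6 muscle-containing libraries the first was 1.355 (adjusted p = 0.959). The interaction was 1.91 ± 0.69, with a 95% interval of 0.49 to 3.33 and an adjusted p of 0.607, or 1.16 without WT saline mouse 9. Under saline Th-Cre mice were below the WT mean in 6 of 6, at -1.14 ± 0.49 (adjusted p = 0.0869), a value of -0.44 without WT saline mouse 9. Under DCZ the difference was 0.78 ± 0.49 (adjusted p = 0.298), with 0.32 without DN2207 and 1.165 without WT DCZ mouse 3.

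Cebpb and Cebpd encode C/EBP beta and delta, factors induced in acute inflammation that also start adipocyte differentiation. Cebpb lies at chr2:167688915-167690418 and Cebpd at chr16:15887286-15891031, both on the plus strand and both overlapping a gene on the other strand, Tmem189 and Spidr. Cebpb was the steadiest of the 10 genes, with 175 to 330 CPM in WT saline, 204 to 282 in WT DCZ, 220 to 308 in Th-Cre saline and 207 to 368 in Th-Cre DCZ. Its log2 difference was 0.14 ± 0.14 in Th-Cre, with a 95% interval of -0.15 to 0.43, and -0.06 ± 0.14 in WT, from -0.35 to 0.23. Cebpd had 4.09 to 16.8 CPM in WT saline (median 7.16), 3.46 to 8.55 in WT DCZ (median 6.67), 4.59 to 6.59 in Th-Cre saline (median 5.90) and 5.14 to 10.8 in Th-Cre DCZ (median 6.65). With DCZ, 3 of 6 Th-Cre mice were above every Th-Cre saline mouse, at a log2 difference of 0.30 ± 0.26 (adjusted p = 0.988), against -0.42 ± 0.26 in WT (adjusted p = 0.628). The WT value was -0.14 without mouse 9 and -0.26 without mouse 12, both of the saline group. Without the 6 muscle-containing libraries the Th-Cre value was 0.61 (adjusted p = 0.994) and the WT value -0.24 (adjusted p = 0.921). Between genotypes under saline Cebpd was at -0.55 ± 0.26 (adjusted p = 0.125), or -0.27 without WT saline mouse 9, and the interaction was 0.71 ± 0.37 (adjusted p = 0.688), or 0.43 without it.

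Females had lower Ccl2 and Socs3 than males. Ccl2 was 0.176 to 1.16 CPM in the 12 females (median 0.450) and 0.513 to 2.30 in the 12 males (median 1.11), and 7 of 12 females were below every male. It fell in females by 0.93 ± 0.27 on the log2 scale, 1.91-fold (adjusted p = 0.0323), with 11 of 12 females below the male mean. Socs3 was 2.22 to 15.8 CPM in females (median 4.06) and 3.55 to 50.3 in males (median 8.92). It fell by 1.16 ± 0.35 on the log2 scale, 2.23-fold (adjusted p = 0.0411), and 5 of 12 females were below every male. Cxcl1 had a log2 difference of a like size, -1.14 ± 0.36, that missed the threshold (adjusted p = 0.0511). DESeq2 called it (-1.23, adjusted p = 0.0198), as did the fit with no filter (-1.14, adjusted p = 0.0321). So did the fits without WT saline 7 or 11, WT DCZ 1, or Th-Cre mice DN2072, DN2075, DN2089, DN2091 or DN2207, whereas without both WT males 9 and 3 it was -0.60 (adjusted p = 0.209). Of the 9 genes 8 had negative values here, with a median of -0.30 against 0.00 over all genes, and Cebpb was at 0.01 ± 0.10.

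Both calls depended on single libraries. Without WT saline 9 and WT DCZ 3, which are males, Ccl2 was at -0.76 (adjusted p = 0.0821) and Socs3 at -0.64 (adjusted p = 0.146), so neither was called. Without the 6 muscle-containing libraries, 4 of them female, Ccl2 was at -1.40 (adjusted p = 0.0102) and Socs3 at -1.33 (adjusted p = 0.0914). Leaving out 1 library at a time moved the Ccl2 adjusted p across the threshold in 9 of 24 cases and that of Socs3 in 12 of 24, with the sign kept. For Ccl2 these were WT saline 2, 8, 9 and 11, WT DCZ 6 and 10, and Th-Cre mice DN2087, DN2201 and DN2205. For Socs3 they were WT saline 2, 8 and 9, WT DCZ 3, 4 and 6, and Th-Cre mice DN2072, DN2087, DN2094, DN2099, DN2201 and DN2205. Skeletal muscle markers were called higher in females for 8 of 13, where 8.07% of all genes were called in either direction. Macrophage markers, none of which was at 0, summed to 68.8 to 208 CPM in males and 80.6 to 145 in females. The part of cell composition in the sex difference was not tested.

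**Figure D3:**
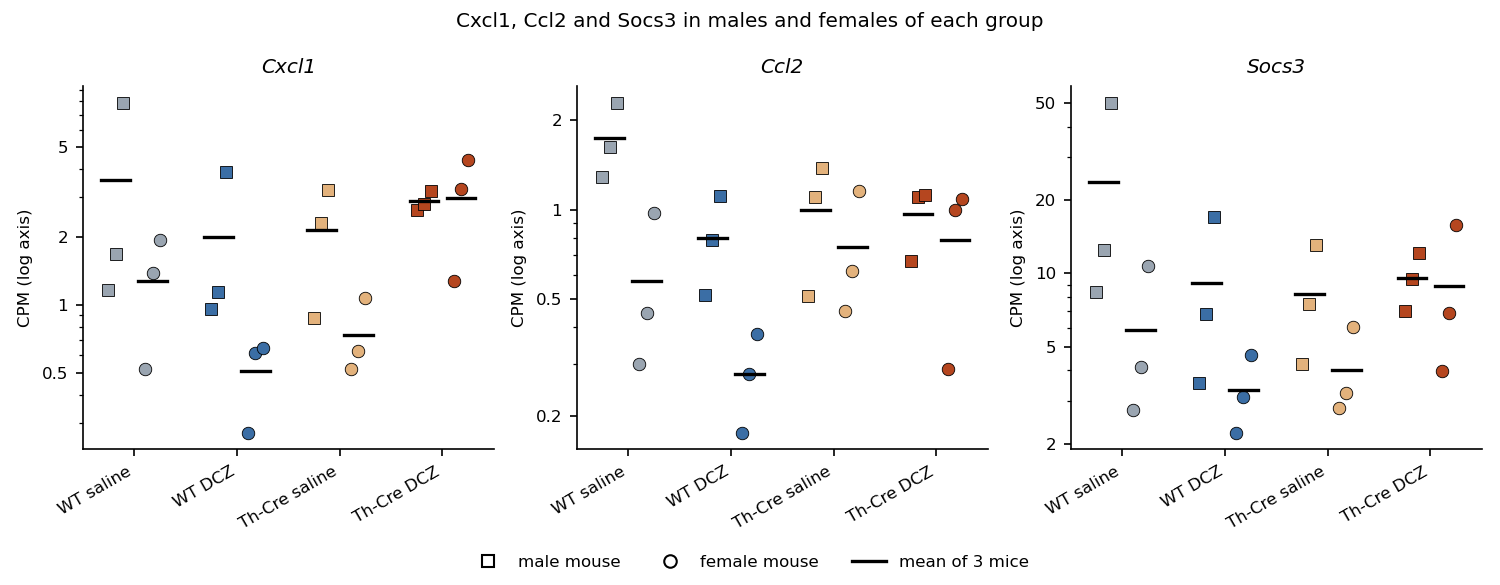
Cxcl1, Ccl2 and Socs3 in CPM (log axes) for males (squares) and females (circles) in each group, with black lines at the mean of 3 mice. In Th-Cre DCZ the sexes sit at the same height for Cxcl1, 2.88 and 2.98 CPM on average, while in the other groups male means are higher for all 3 genes.

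Within groups the sexes were uneven. For Cxcl1 the male and female means were 3.59 and 1.28 CPM in WT saline, 1.995 and 0.510 in WT DCZ, 2.14 and 0.737 in Th-Cre saline, and 2.88 and 2.98 in Th-Cre DCZ. In females alone the Cxcl1 log2 difference for DCZ in Th-Cre was 2.04 (adjusted p = 0.435, 3 mice against 3) and in males alone 0.41 (adjusted p = 0.996). Socs3 gave 1.17 in females and 0.20 in males. Whether the DCZ effect differed between the sexes was not tested.

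Across the 24 mice, with group means and the sex term taken out, the genes varied together. Of 36 pairs 22 had a Pearson r over 0.5, the median was 0.56, and 25 had a permutation p adjusted over the 36 pairs under 0.05. The closest pair was Nfkbiz and Socs3, with r = 0.92 (permutation p = 1e-05, the smallest that 100000 resamples can give; adjusted p = 0.00018) and Spearman's rho = 0.83 (adjusted p = 0.00108). Without the 2 mice farthest from the median its r was 0.86, and it was 0.96 in WT and 0.87 in Th-Cre mice alone. Cxcl1 and Socs3 had r = 0.85 (adjusted p = 0.00018; rho = 0.77, adjusted p = 0.00207), or 0.76 without the 2 farthest mice. Tnfaip3 and Ccl2 had r = 0.77 (adjusted p = 0.00036; rho = 0.75, adjusted p = 0.00207), or 0.73 without the 2 farthest mice, and 0.66 in WT against 0.85 in Th-Cre.

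Cebpb stood outside this pattern. Its r with the other 8 genes was between 0.03 and 0.20, and 0 of those 8 pairs passed the adjusted threshold. In Th-Cre mice alone its r ran from 0.28 to 0.59 and in WT alone from -0.40 to 0.07. Icam1 was in between, with r of 0.43 to 0.57 to the 7 genes other than Cebpb, and the pairs with Nfkbiz and Socs3 were 0.83 and 0.73 in WT but 0.13 and 0.10 in Th-Cre. Over all 36 pairs the median r was 0.66 in WT, 0.48 in Th-Cre and 0.49 without the 2 farthest mice. For comparison, the share of all tested genes with an r over 0.5 to a given gene ran from 1.84% for Cebpb to 7.98% for Nfkbia.

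**Figure D4:**
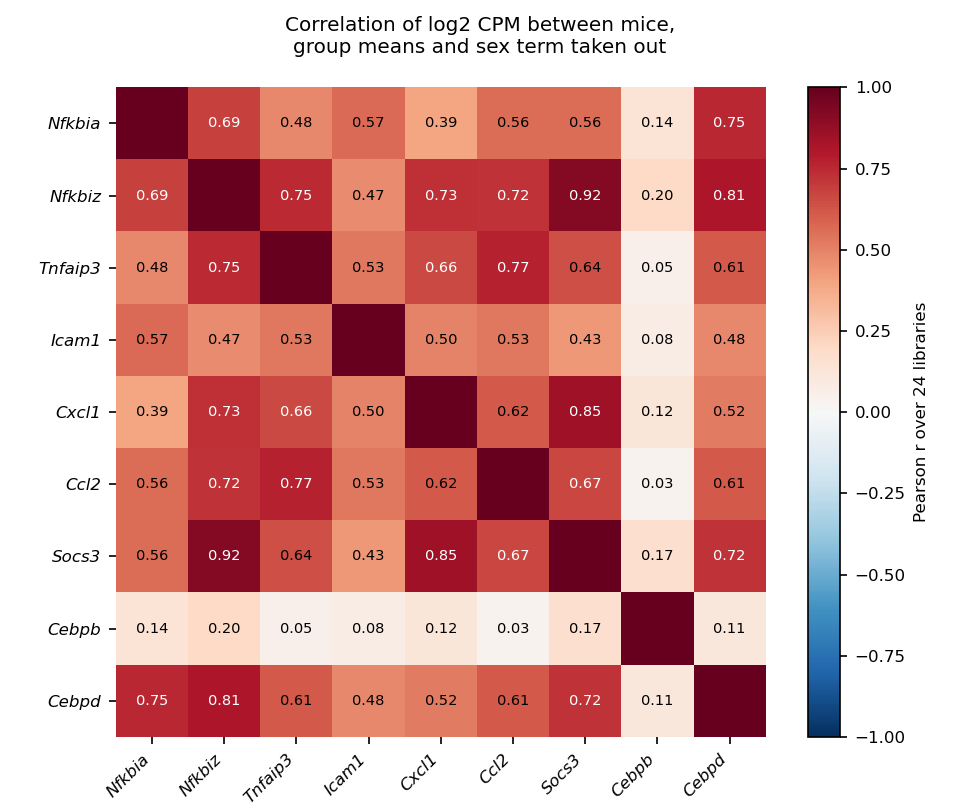
Pearson r of log2 CPM over 24 mice for each pair of the 9 tested genes, after group means and the sex term were taken out. Cebpb has values of 0.20 or less with every other gene, while Nfkbiz, Socs3 and Cxcl1 form pairs of 0.73 to 0.92.

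The genes whose levels followed each of the 9 most closely, chosen as the top 3 of all tested genes by r, were often immediate-early genes, which are induced without new protein synthesis. Junb, a subunit of AP-1, was among the top 3 for Nfkbiz (r = 0.89), Socs3 (0.85), Cxcl1 (0.80) and Tnfaip3 (0.79). Egr2 was the closest gene to Ccl2 (0.82). Of 18 early response genes set beside these genes, 16 had an r over 0.5 to Nfkbiz and 16 to Ccl2, 13 to Socs3, 13 to Cebpd, 14 to Tnfaip3, 12 to Cxcl1 and 5 to Nfkbia. Only 1 of 18 did so for Icam1, whose closest genes were Sp110, Arhgap23 and Nab2, and 0 of 18 for Cebpb, closest to Flad1 (0.81). Cebpd was closest to Tmem252 (0.85) and Nfkbia to Tagln2 (0.88).

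**Figure D5:**
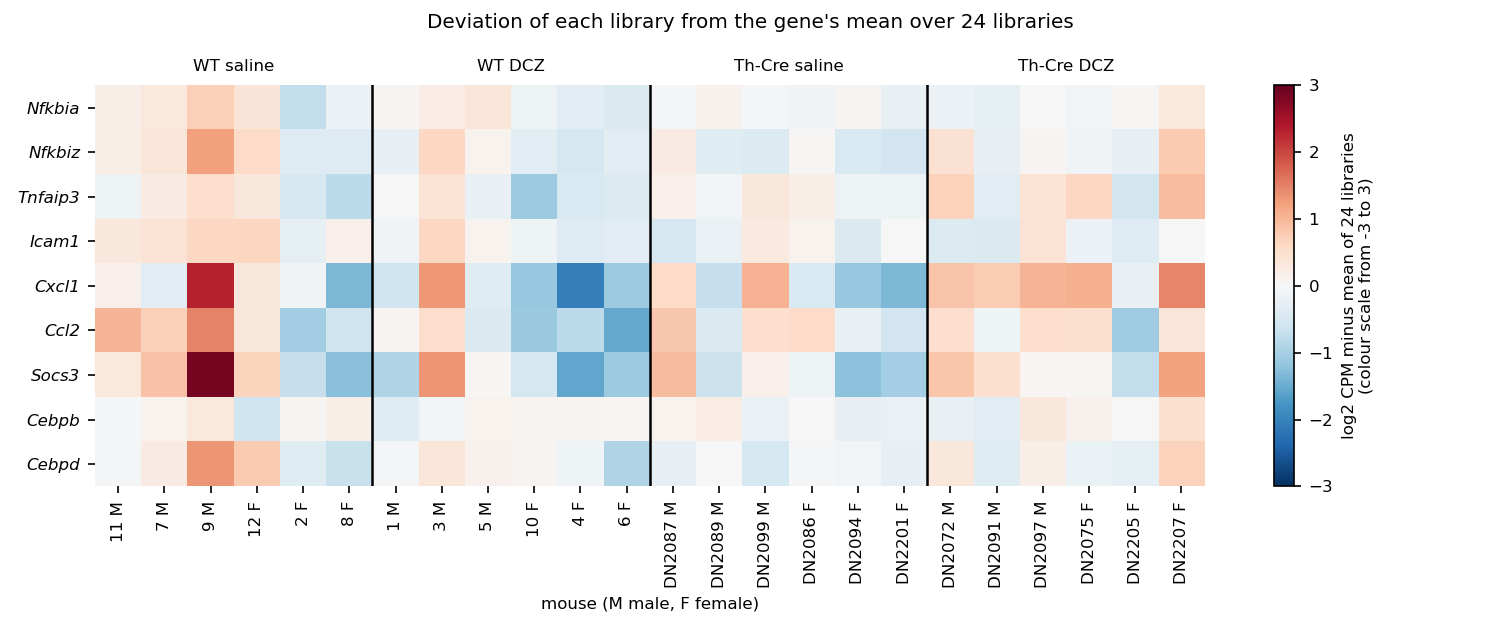
Log2 CPM of each tested gene in each mouse minus the gene's mean over 24 mice, with mice by group and sex; red is above and blue below the mean. WT saline male 9 is red in every row, at 2.88 for Socs3 and 2.30 for Cxcl1, and the WT DCZ females are mostly blue, down to -2.06 for Cxcl1 in mouse 4.

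The mice at the ends of this shared axis came from different groups. WT saline mouse 9 had 110 CPM of Fos, an immediate-early gene, where its group's other mice had 21.7 to 51.1, and WT DCZ mouse 3 had 85.1 CPM where the others had 9.52 to 33.7. Th-Cre DCZ mouse DN2207 was highest of its group for 7 of 9 genes and had 133 CPM of Fos. Fos did not always mark such mice. Mouse DN2072 of the same group had the highest Fos of all mice, 189.5 CPM, and was highest of its group for 0 of 9 genes. Th-Cre saline mouse DN2087 had 117 CPM of Fos and was highest of its group for 3 of 9. WT saline mouse 9 also had the highest summed erythroid markers of all mice, 1152 CPM, and its macrophage markers, at 70.3 CPM, were the lowest of its group. WT DCZ mouse 3 had macrophage markers of 208 CPM against a group median of 82.5. The part of these cell types in the shared variation was not tested.

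Among the other genes of the pathway, NF-kB subunits and further inhibitor proteins were called for 0 of 9 in either DCZ comparison, with medians of 0.01 in Th-Cre and -0.17 in WT. Between genotypes under DCZ 2 of 9 were higher in Th-Cre, where 13.8% of all genes were called in either direction: Relb (log2 0.61 ± 0.14, adjusted p = 0.00920) and Nfkb2 (0.47 ± 0.11, adjusted p = 0.0104), which form the dimer of the alternative NF-kB pathway. Relb was also lower in females (-0.38 ± 0.10, adjusted p = 0.0201). Of 20 genes for the IKK complex, adaptors and deubiquitinases, 0 were called for DCZ in either genotype. Under saline, where 24.9% of all genes were called, 6 of the 20 were higher and 1 lower in Th-Cre, with Tab2, an adaptor of the TAK1 kinase, at 0.39 ± 0.07 (adjusted p = 0.00160). Under DCZ 3 of 20 were higher in Th-Cre and 0 lower, a share close to the 13.8% of all genes.

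Of 15 other cytokine genes 6 had enough reads to test, and Tnf, Il1a, Il10, Lif and Osm were among the 9 that did not. Under DCZ, where 13.8% of all genes were called between genotypes, 2 of the 6 were called. Il1b, the inflammasome product and a strong NF-kB activator, was higher in Th-Cre (1.36 ± 0.43, adjusted p = 0.0356) and Clcf1 lower (-0.88 ± 0.25, adjusted p = 0.0241). Of 20 other chemokines 15 were tested. Cxcl10, an interferon-induced ligand of Cxcr3, was the 1 called under DCZ, higher in Th-Cre (2.35 ± 0.51, adjusted p = 0.00582), with means of 1.34 CPM against 0.251 in WT. Under saline 2 of the 15 chemokines were higher in Th-Cre, Ccl8 and Ccl9, and 2 lower, Cx3cl1 and Ccl11, a share close to the 24.9% of all genes. Females had less Cxcl14 (-0.76 ± 0.09, adjusted p = 1.64e-05) and Ccl11 (-0.26 ± 0.07, adjusted p = 0.0179). These were the 2 of 15 called for sex, against 8.07% of all genes.

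Receptors were called for 0 of 20 in the DCZ comparisons. Between genotypes 1 of 20 was called under saline and 4 of 20 under DCZ, where 24.9% and 13.8% of all genes were. Il6st, which encodes the shared receptor chain gp130, was higher in Th-Cre under saline (0.36 ± 0.07, adjusted p = 0.001765) and under DCZ (0.36 ± 0.07, adjusted p = 0.00292), and Il6ra, its IL-6 binding partner, under DCZ (0.53 ± 0.15, adjusted p = 0.0199). Of 22 tested genes of the JAK-STAT pathway and its feedback, 0 were called for DCZ, while under saline 7 were higher and 1 lower in Th-Cre, and under DCZ 7 were higher and 0 lower, against 24.9% and 13.8% of all genes called. Stat5b and Ptpn11 were higher in both. The smallest p for DCZ in Th-Cre in this list was that of Pim3, a kinase induced by cytokines (0.63 ± 0.15, unadjusted p = 0.000395, adjusted p = 0.162). Socs2, a feedback gene of growth hormone signalling, rose in females (0.79 ± 0.16, adjusted p = 0.00312), whereas Socs3 fell.

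Of 22 tested further NF-kB responsive genes 0 were called for DCZ in either genotype. Zfp36, which encodes an RNA-binding protein that destabilises cytokine mRNAs, had a log2 difference of 1.12 ± 0.34 in Th-Cre (adjusted p = 0.461) and was higher in Th-Cre than WT under DCZ (1.32 ± 0.35, adjusted p = 0.0155). It was the 1 of 22 called between genotypes under DCZ, against 13.8% of all genes. Irf1 had the smallest p in WT (-0.49 ± 0.12, adjusted p = 0.510) and was lower in Th-Cre under saline (-0.47 ± 0.12, adjusted p = 0.00889), as were Cd40 and Nos2. These were 3 of 22 called under saline, against 24.9% of all genes. Trib1, which targets C/EBP alpha for degradation, was at 0.68 ± 0.16 for DCZ in Th-Cre (adjusted p = 0.149). Under DCZ it was higher in Th-Cre than WT (0.82 ± 0.16, adjusted p = 0.00311), the 1 called of the 6 tested genes of its list, against 13.8% of all genes.

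For DCZ in Th-Cre, early response genes gave calls where the inflammatory genes gave none. Of 18, 2 rose in Th-Cre mice given DCZ, against 0.0229% of all genes called. They were Dusp1, a MAP kinase phosphatase (1.27 ± 0.18, adjusted p = 0.00472), and Jun (1.42 ± 0.22, adjusted p = 0.00514). Their list had 18 of 18 positive values and a median of 0.91, against 8 of 9 and 0.30 for the 9 inflammatory genes, and the difference between these lists was not tested. Both lists were written with earlier results of these data known, so their calls are no independent support for a contrast between them. In WT 0 of 18 were positive, with a median of -0.47. Between genotypes under DCZ 12 of 18 were called higher in Th-Cre (median 1.25), against 13.8% of all genes called. Under saline 2 of 18 were called lower in Th-Cre (median -0.27), against 24.9%. In females 9 of 18 were called lower (median -0.60, 0 of 18 positive), against 3.95% of all genes called lower. Of the 9 inflammatory genes, 2 were called lower in females and 0 were called between genotypes under DCZ. Of 13 glucocorticoid responsive genes 0 were called for DCZ, with Pdk4 at 0.48 ± 0.11 in Th-Cre (adjusted p = 0.149).

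Cell type markers showed no calls for DCZ: 0 of 11 macrophage, 0 of 5 tested neutrophil, 0 of 8 tested lymphocyte and 0 of 9 endothelial markers in either genotype. Macrophage marker sums were 80.6 to 145 CPM in Th-Cre saline and 78.6 to 147.5 in Th-Cre DCZ. Neutrophil markers, the cells Cxcl1 attracts, summed to 4.25 to 8.815 CPM in Th-Cre saline and 4.64 to 8.499 in Th-Cre DCZ.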

How the data were processed

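RNA from interscapular brown fat of 24 mice was sequenced. The authors deposited estimated counts per gene, made with kallisto 0.44.0 on GRCm38.p6 per the submitters' processing notes; the deposited values are whole numbers and were used as they stand. Each library held 11.9 to 22.9 M counts, and 84.2% to 88.7% of reads pseudoaligned, a percent the authors deposited. Strand use in counting is not given in the sources used here.

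Genes passing edgeR's expression filter (13129) were fitted in edgeR 4.0.16 (TMM, quasi-likelihood, 4 groups plus sex, all 24 libraries), with Benjamini-Hochberg adjustment over all of them and a threshold of 0.05. DESeq2 1.42.0 and limma-voom (limma 3.58.1) were alternatives, and the script was tested on simulated data. Il6, below the filter, was compared by exact permutation. Correlations used log2 CPM residuals from group and sex, with 100000 permutations. Genes of a list were eligible to be named if called (at most the 4 with the smallest p) or, with none called, as the 2 with the smallest p; the 3 closest genes to each member were taken by Pearson r. Promoters came from RefSeq, gene positions from GENCODE.

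The members and lists were chosen with earlier results of these data known. The part of cell types was not tested.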

Additional observations from a re-analysis of the deposited data

Results flagged for a closer look

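Of 40 sets of 6 mice (10 genes in 4 groups), 5 held 1 mouse far from the other 5 by Dixon's test. Chance flags about 1 in 20 only among independent sets with normally distributed values. These sets share mice, the genes varied together and some had few counts, so 5 of 40 cannot be set against that rate. All 5 came from 2 WT males. WT saline mouse 9 had 7.91 CPM of Cxcl1, where the next mouse of its group had 1.95, and 50.3 CPM of Socs3, where the next had 12.5. WT DCZ mouse 3 had 3.89 CPM of Cxcl1 against a next value of 1.14, 17.05 CPM of Socs3 against 6.85, and 0.611 CPM of Il6 against 0.0563. Without both mice the Th-Cre against WT difference under saline was -0.05 for Cxcl1 (edgeR, adjusted p = 0.944; -0.76 with them) and -0.41 for Socs3 (adjusted p = 0.456; -1.14 with them). Under DCZ it was 2.01 for Cxcl1 (adjusted p = 0.00617; 1.48 with them) and 1.16 for Socs3 (adjusted p = 0.0527; 0.78 with them).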

How the results depend on the processing

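No paired analysis was possible because no mouse number occurs in both groups of a comparison. Over the alternatives of the 9 tested genes 1347 values kept direction and side of the threshold, 53 reversed, 24 gained and 25 lost a call. The DCZ comparisons and the interaction called no member under any alternative run; the minimum mean of 5 CPM left 6 of the 9 genes, without Cxcl1, Ccl2 and Tnfaip3. Between genotypes under saline limma-voom called 1; under DCZ DESeq2 called 2, no filter 1 and the fit without WT saline 9 and WT DCZ 3 (chosen after seeing the data, as was leaving out the muscle-containing libraries) 2. For sex DESeq2 and the fit with no filter called 3, limma-voom 1, a minimum mean of 5 CPM 1 of the 6 left, the fit without muscle-containing libraries 1 and that without the 2 males 0. Leaving out 1 library at a time gave 0 to 2 calls under saline, 0 to 2 under DCZ and 0 to 3 for sex. These log2 values reversed. For DCZ in Th-Cre, Nfkbia was at -0.0044 with limma-voom, -2.227e-05 with the compared groups alone and -0.16 in males; Icam1 at 0.0041 in males; Ccl2 at -0.059 with limma-voom, -0.0055 without the sex term and -0.10 in males; Cebpb at -0.10 in males. For DCZ in WT, Cebpb was at 0.14 in females and 0.026 without the 2 males. Under saline, Nfkbia was at 0.037 and Ccl2 at 0.31 in females, and Tnfaip3 at -0.078 in males. Under DCZ, Nfkbia was at -0.010 with upper-quartile factors, -0.0064 without the sex term and -0.37 in males; Nfkbiz at -0.082 and Cebpd at -0.073 in males; Icam1 at 0.11 in females and 0.014 without the 2 males. The cause was not tested.

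Leaving out 1 library at a time, DCZ in Th-Cre ran from -0.093 to 0.085 for Nfkbia, -0.16 to 0.039 for Icam1 and -0.17 to 0.23 for Ccl2, and DCZ in WT from -0.16 to 0.013 for Cebpb. Tnfaip3 under saline ran from -0.048 to 0.18. Under DCZ, Nfkbia ran from -0.083 to 0.10, Icam1 from -0.25 to 0.018 and Cebpd from -0.034 to 0.27, and for sex Cebpb from -0.033 to 0.065. The Il6 difference ran from 0.068 to 0.117 CPM for DCZ in Th-Cre, -0.136 to -0.00216 for DCZ in WT, -0.1185 to -0.0553 under saline and 0.0124 to 0.1346 under DCZ. Depth limits Il6 most, and Ccl2 next. Without the muscle-containing libraries the count of all genes called fell from 3270 to 109 under saline and from 1808 to 535 under DCZ. For DCZ in Th-Cre all-gene calls were 3 with edgeR, 40 with DESeq2 and 7 with limma-voom.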
